A study of Mus musculus with 10 samples.

Results

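The amino acid transporter families Slc1, Slc3, Slc6, Slc7, Slc36, Slc38 and Slc43 were read across a 2-colour array study of a pair of mouse FDB1 cell lines. Members were all genes whose symbol in the array annotation begins with one of these family names, and 42 genes, measured by 51 probes, met that rule among 20243 features. The rule used names only and no measured value. It also took in the monoamine carriers Slc6a2, Slc6a3 and Slc6a4, and 3 genes named for lying on the opposite strand of a carrier gene (Slc7a6os, Slc36a1os and Slc6a19os), which encode no carrier. RefSeq lists 67 genes under the same names, of which 25 were not analysed here.

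FDB1 is a mouse myeloid progenitor line that depends on the cytokine IL-3. In this study it carried either FI-Delta, a mutant of the beta chain shared by the receptors for GM-CSF, IL-3 and IL-5, or FI-Delta Y577F, which differs by a tyrosine changed to phenylalanine (called Y577F cells here). All cells were grown in serum with IL-3, and RNA was taken either then (0 h) or 72 h after the cells had been washed and left without the factor. Because no RNA came from cells held for 72 h with IL-3, the removal of the factor, the washing and the time elapsed cannot be told apart. Both lines expressed a mutant receptor, and no line with the normal receptor was analysed here. Whether a line was a clone or a pool is not given in the sources used here.

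Each of the 10 arrays compared 2 RNA samples, and 2 cultures per line were prepared. Of these, 3 set the lines against each other at 0 h and 2 did so at 72 h. Another 3 set the times against each other in FI-Delta cells, and 2 in Y577F cells. FI-Delta time arrays 1 and 2 held 1 RNA pair with the dyes exchanged, and were averaged. The values are log2 ratios, taken to run as Cy5 over Cy3, which is likely but not stated, and turned so that a positive value means more RNA at 72 h or in Y577F cells. The log base is likewise assumed, and if the ratios ran the other way every direction given here would be the opposite. A change is given as the estimate ± its standard error from a linear model over all 9 remaining hybridisations, and it was called at an adjusted p under 0.05 (limma, Benjamini-Hochberg over all 20243 features). The arrays share RNA samples, so the p-values measure the spread between hybridisations, which may be partly technical. In bulk RNA, fewer cells of a type and less RNA per cell cannot be told apart.

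Arrays of 1 kind did not all resemble each other. Across the 42 members the turned ratios of the Y577F time arrays correlated with r of 0.892, those of the 72 h arrays with 0.597, and those of FI-Delta time arrays with r between 0.520 and 0.755. At 0 h arrays 2 and 3 had r of 0.539, and array 1 had r of 0.255 and 0.253 with them. By the titles, 0 h array 1 was the only 0 h array with FI-Delta RNA in Cy5. An effect of that array and one of dye orientation therefore cannot be told apart. Without it, all 0 h arrays left have Y577F RNA in Cy5. Over all features array 1 had r of 0.087 and -0.037 with the others. Where the call of one of the 42 members changed without 0 h array 1, the text says so.

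Amino acid carriers sit in the plasma membrane or in the lysosome and decide which amino acids a cell can take up, exchange or give out. The Slc7 light chains work as exchangers bound to a heavy chain of the Slc3 family. Slc3a2, the CD98 heavy chain, pairs with Slc7a5 (LAT1), which brings in leucine and other large neutral amino acids, and with Slc7a11 (xCT), which brings in cystine in exchange for glutamate. Slc1a5 (ASCT2) and its close relative Slc1a4 (ASCT1) exchange small neutral amino acids, and Slc1a5 is a main route for glutamine. Activated blood cells are known to raise Slc7a5, Slc3a2 and Slc1a5 when they grow, and the transcription factor ATF4 is known to act on several carrier genes when amino acids are scarce. The lysosomal carriers Slc36a1 and Slc38a9 are linked to the activation of the growth kinase complex mTORC1. Slc6 carriers use sodium and chloride to take up taurine, betaine, GABA, glycine or monoamines.

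Promoter letters are shown for members of the neutral, cystine and lysosomal groups described below that hold a match. These groups are known for control through short elements near the start of the gene. Windows from RefSeq (GRCm38.p6) ran from 250 bases before to 50 after a transcription start, and 32 of the 42 members had at least 1. The core of the amino acid response element, TGATGNAA on either strand, stood in the windows of 4 members (Slc1a4, Slc6a21, Slc7a7 and Slc7a11), and in 3.97% of all 32851 windows of this length. Slc3a2, Slc7a8, Slc7a9, Slc38a2 and Slc38a9 had windows without this core. The 32 members had 47 windows, so a count of members and a share of windows are unlike units. CACGTG, the E-box read by bHLH factors of the Tfeb kind, stood in the windows of 4 members (Slc1a6, Slc36a1, Slc43a1 and Slc6a3) and in 7.15% of all windows. TGACNNNGC, the core of the antioxidant response element, stood in those of 7 members and in 12.4% of all windows, and in none of Slc7a11. Shown are the 100 bases before and 10 after the start, 5' to 3' on the gene's strand, with the amino acid response core in capitals in the first group and the E-box in capitals in the last. Slc1a4 lies at chr11:20332704-20332813 on the minus strand, Slc7a11 at chr3:50443604-50443713 on the minus strand, Slc7a7 at chr14:54417935-54418044 on the minus strand, and Slc36a1 at chr11:55204240-55204349 on the plus strand.
Slc1a4: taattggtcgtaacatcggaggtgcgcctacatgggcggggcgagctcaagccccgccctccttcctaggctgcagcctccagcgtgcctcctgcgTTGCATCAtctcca
Slc7a11: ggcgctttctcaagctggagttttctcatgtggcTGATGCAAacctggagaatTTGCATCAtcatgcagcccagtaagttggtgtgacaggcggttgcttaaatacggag
Slc7a7: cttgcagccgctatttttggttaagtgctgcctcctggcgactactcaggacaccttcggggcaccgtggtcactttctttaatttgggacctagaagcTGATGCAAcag
Slc36a1: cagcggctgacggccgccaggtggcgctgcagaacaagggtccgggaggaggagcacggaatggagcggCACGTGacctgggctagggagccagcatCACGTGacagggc

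In Slc7a11 the matches stand 66 and 47 bases before the start, on opposite strands, and each of them is the same 8 letters read from the other strand. The match of Slc1a4 begins 4 bases before the start. Slc7a7 has several starts, and at the one shown the match in capitals begins 1 base before it, and another core, TGATGAAA, at position -141 from it, outside the letters shown. Other windows of Slc7a7 hold the first of these farther from the start, or no match. A match is a run of letters and not a bound site, and these genes did not move alike, as the values below show. Slc1a5 and Slc7a5 had no window.

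The members went both ways in each line over time, and 17 of the 42 were called in at least 1 of the 5 comparisons. In FI-Delta cells 7 members rose over 72 h and 4 fell, where 5.19% of all features rose and 2.97% fell. In Y577F cells 5 rose and 8 fell, against 9.28% and 8.75% of all features. The median over the 42 members was -0.07 in FI-Delta and -0.05 in Y577F cells, and the median over all features -0.01 and 0.01. Between the lines at 0 h, 4 members were higher in Y577F cells and none was lower (1 was lower at an unadjusted p under 0.05), with 0.934% and 0.484% of all features called. At 72 h, 5 were higher and none lower (again 1 at an unadjusted p under 0.05), with 6.44% and 6.45% of all features called. With array weights the 5 became 14, of which 8 were higher and 6 lower. The 72 h change differed between the lines for 9 members, more positive in Y577F cells for 3 and more negative for 6, with 4.33% and 4.91% of all features. The comparisons share RNA samples and are not independent of each other.

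**Figure D1:**
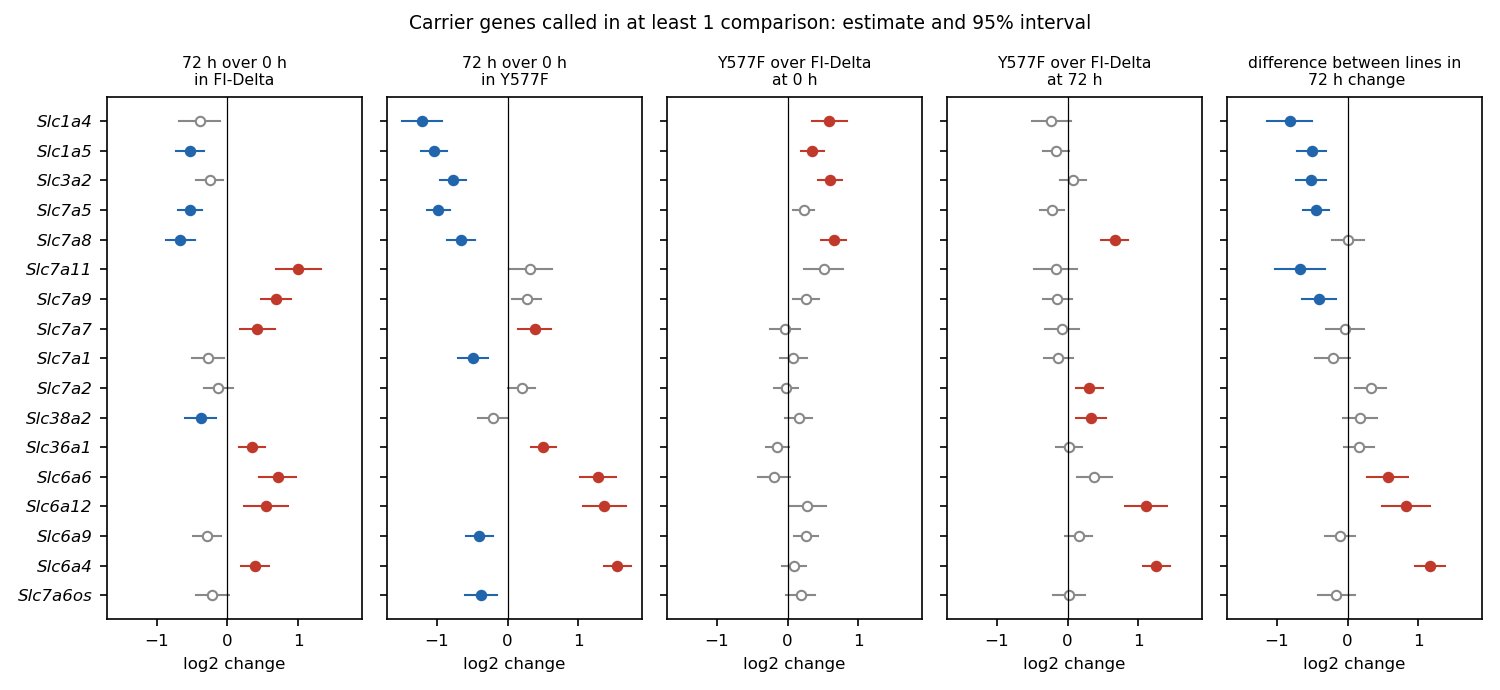
Estimated log2 change (x axis, 1 panel per comparison) with its 95% interval for the 17 genes called in at least 1 comparison (y axis), where filled red points were called higher, filled blue points lower and open grey points were not called. Slc1a4, Slc1a5, Slc3a2 and Slc7a5 lie on the left for the change in Y577F cells, and Slc6a4, Slc6a12 and Slc6a6 lie on the right in both time panels.

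The counts depended on single hybridisations. The 11 calls in FI-Delta cells became 6 without 0 h array 1, Y577F time array 1 or FI-Delta time array 3, and 7 without FI-Delta time arrays 1 and 2 or 72 h array 2. The 4 calls at 0 h became 1 without 0 h array 1, and 2 without 0 h array 3, 72 h array 1 or FI-Delta time arrays 1 and 2. The 5 calls at 72 h became 3 without either 72 h array, 0 h array 3, FI-Delta time arrays 1 and 2, FI-Delta time array 3 or Y577F time array 1, and the 9 differences became 5 without 72 h array 2. With a term for each RNA sample as a replicate block, the counts in the order of the preceding paragraph were 4, 8, 0, 2 and 2, with 8 members at an unadjusted p under 0.05 at 0 h. That fit rests on a reading of the labels. On the arrays between the lines with Y577F RNA in Cy5, the culture numbers stand in the titles with the opposite lines. Cultures 1 and 2 were taken as FI-Delta and cultures 3 and 4 as Y577F on every array, against the order of those titles. The calls kept in that fit were Slc6a6, Slc7a5, Slc7a9 and Slc7a11 in FI-Delta cells, Slc1a4, Slc1a5, Slc3a2, Slc7a5, Slc36a1, Slc6a4, Slc6a6 and Slc6a12 in Y577F cells, Slc6a4 and Slc6a12 at 72 h, and the differences of Slc1a4 and Slc6a4.

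The exchangers of small neutral amino acids, Slc1a4 and Slc1a5, fell in Y577F cells over 72 h, and more than in FI-Delta cells. Slc1a5 read -1.13 and -0.94 on the Y577F time arrays, and -0.28, -0.69 and -0.54 on the FI-Delta time arrays 1, 2 and 3. All 5 values were below 0, and the values of the lines did not overlap. FI-Delta time arrays 1 and 2 hold the same RNA pair, so the values stand for 2 cultures per line. How many of all features show no overlap was not counted, so overlap here and below is description only. The estimates were a drop of 2.05-fold in Y577F cells (-1.04 ± 0.08, adjusted p = 6.7e-06) and of 1.44-fold in FI-Delta cells (-0.53 ± 0.09, adjusted p = 0.003), and the difference was -0.51 ± 0.10 (adjusted p = 0.0071). Slc1a4 read -1.09 and -1.61 on the Y577F time arrays and -0.08, -0.32 and -0.39 on those of FI-Delta cells. It fell 2.31-fold in Y577F cells (-1.21 ± 0.13, adjusted p = 4.7e-05), while the value of -0.39 ± 0.13 in FI-Delta cells was not called (adjusted p = 0.10). The difference between the lines was -0.82 ± 0.14 (adjusted p = 0.0048), the most negative of any member.

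Both genes started from a higher level in Y577F cells with IL-3. Slc1a4 read 0.51, 0.23 and 0.66 on 0 h arrays 1, 2 and 3, and Slc1a5 read 0.31, 0.25 and 0.54, all above 0. The estimates were 0.59 ± 0.11 (adjusted p = 0.027) and 0.35 ± 0.08 (adjusted p = 0.049). The call of Slc1a5 was lost whichever hybridisation was left out, with values between 0.30 and 0.40. That of Slc1a4 was lost without 0 h array 1 or 3, 72 h array 1 or FI-Delta time arrays 1 and 2, with values between 0.53 and 0.71. At 72 h Slc1a4 read -0.11 and -0.07 and Slc1a5 -0.18 and -0.15, and neither was called (-0.23 ± 0.13, adjusted p = 0.29, and -0.16 ± 0.08, adjusted p = 0.27). The glutamate carriers of the same family, Slc1a1, Slc1a2, Slc1a3 and Slc1a6, were called in no comparison.

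The heavy chain Slc3a2 and the leucine carrier Slc7a5 showed the same pair of features, a fall in Y577F cells that was larger than in FI-Delta cells. Slc7a5 read -0.97 and -1.0 on the Y577F time arrays and -0.50, -0.60 and -0.54 on the FI-Delta time arrays, so each line was tight and the lines were apart. It fell 1.97-fold in Y577F cells (-0.98 ± 0.08, adjusted p = 4.9e-06) and 1.44-fold in FI-Delta cells (-0.53 ± 0.08, adjusted p = 0.0014). The difference of -0.45 ± 0.09 (adjusted p = 0.0082) was not called without 72 h array 2, at -0.41. Slc3a2 read -0.67 and -0.89 in Y577F cells, and -0.18, -0.20 and -0.34 in FI-Delta cells, again with no overlap. Its change was -0.77 ± 0.08 in Y577F cells (adjusted p = 6.9e-05) and -0.25 ± 0.09 in FI-Delta cells, which was not called (adjusted p = 0.12), and the difference was -0.52 ± 0.10 (adjusted p = 0.0066).

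At 0 h Slc3a2 was higher in Y577F cells on every array, at 0.60, 0.47 and 0.69. The estimate was 0.60 ± 0.08, or 1.52-fold (adjusted p = 0.0026), and without 0 h array 1 it was 0.62 and no longer called. Slc7a5 read 0.27, 0.17 and 0.18 on the same arrays and was not called (0.23 ± 0.07, adjusted p = 0.17). At 72 h Slc3a2 read 0.04 and 0.13 and Slc7a5 -0.10 and -0.31, and neither was called (0.08 ± 0.08 and -0.22 ± 0.08, adjusted p = 0.62 and 0.087). Slc3a1, the heavy chain known from kidney and gut, was called in no comparison.

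Slc7a8 (LAT2), a second light chain for neutral amino acids that also pairs with Slc3a2, had another pattern. It fell by about the same amount in both lines, and it was higher in Y577F cells at both times. The time arrays read -0.31, -0.87 and -0.48 in FI-Delta cells and -0.77 and -0.60 in Y577F cells, and here the lines overlapped. The changes were -0.67 ± 0.09 (adjusted p = 0.00095) and -0.66 ± 0.09 (adjusted p = 0.00033). Their difference was 0.01 ± 0.10, with a 95% interval from -0.21 to 0.24. Against FI-Delta cells it read 0.27, 0.91 and 0.96 at 0 h and 0.43 and 0.94 at 72 h, so array 1 was the lowest at each time. Array 1 of each time had FI-Delta RNA in Cy5 and the others had Y577F RNA there. Array and dye orientation cannot be told apart in this spread. The estimates were 0.65 ± 0.08 (1.57-fold, adjusted p = 0.0023) and 0.66 ± 0.09 (1.58-fold, adjusted p = 0.00044). These 4 calls were kept with any 1 hybridisation left out, and the term for each RNA sample ended all of them (adjusted p between 0.058 and 0.39).

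**Figure D2:**
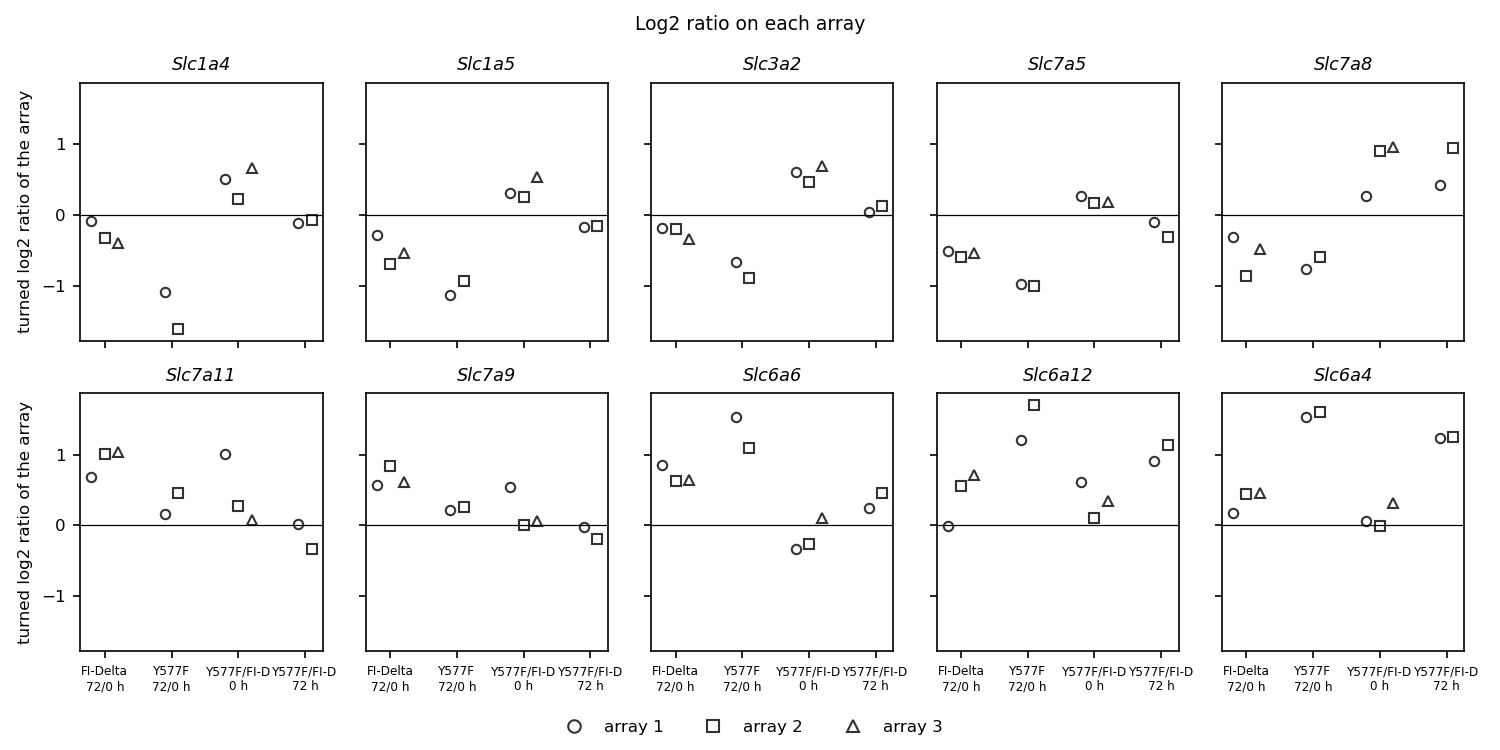
Turned log2 ratio on each single array (y axis) for 10 carrier genes, by kind of array along the x axis (72 h over 0 h in each line, and Y577F over FI-Delta, written Y577F/FI-D, at each time), where circles, squares and triangles are arrays 1, 2 and 3. Slc7a5 is tight at about -0.5 on the FI-Delta and -1.0 on the Y577F time arrays, while the 0 h arrays of Slc7a11 range from 0.07 to 1.01.

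Of 8 light chains measured, 3 rose and 2 fell in FI-Delta cells, and those that rose were Slc7a11, Slc7a9 and Slc7a7, which serve cystine and cationic amino acids. Slc7a11 read 0.68, 1.01 and 1.03 on the FI-Delta time arrays, and 0.16 and 0.45 on those of Y577F cells, with no overlap. It rose 2.00-fold in FI-Delta cells (1.00 ± 0.15, adjusted p = 0.0013), the largest rise of any member in that line, and the value in Y577F cells was not called (0.32 ± 0.14, adjusted p = 0.15). Without 0 h array 1 the rise in Y577F cells was called too, at 0.38 ± 0.11 (adjusted p = 0.044). The difference of -0.68 ± 0.16 (adjusted p = 0.023) was lost without 0 h array 1, 72 h array 2 or FI-Delta time array 3, at values between -0.67 and -0.48. The 0 h arrays disagreed for this gene, at 1.01 on array 1 and 0.27 and 0.07 on arrays 2 and 3, and the estimate at 0 h was not called (0.51 ± 0.13, adjusted p = 0.088).

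Slc7a9, which partners Slc3a1 and carries cystine and cationic amino acids, read 0.57, 0.84 and 0.61 in FI-Delta cells and 0.22 and 0.26 in Y577F cells. It rose in FI-Delta cells (0.68 ± 0.10, adjusted p = 0.0011) and was not called in Y577F cells (0.27 ± 0.09, adjusted p = 0.066). The value in Y577F cells was called when 0 h array 1 was left out (0.30 ± 0.09, adjusted p = 0.041) and when Y577F time array 1 was (0.41 ± 0.11, adjusted p = 0.049). The difference of -0.40 ± 0.11 (adjusted p = 0.037) was also called without Y577F time array 2 or 0 h array 2 or 3, and without each of the others it lay between -0.45 and -0.31 and was not called. Slc7a7 (y+LAT1), which exchanges cationic for neutral amino acids, read 0.48, 0.44 and 0.29 in FI-Delta cells and 0.44 and 0.35 in Y577F cells, a range in which the lines overlapped. Both rises were called, at 0.42 ± 0.11 (adjusted p = 0.042) and 0.38 ± 0.11 (adjusted p = 0.030). The first was called in the fits without 0 h array 2 or 3 and lost without each other hybridisation, at 0.39 to 0.46. The second was lost without either 72 h array, either Y577F time array or FI-Delta time arrays 1 and 2, at 0.36 to 0.39. Slc7a10, Slc7a13 and Slc7a15 were called nowhere.

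Among carriers of cationic amino acids, Slc7a1 (CAT1), the general arginine carrier, read -0.55 and -0.48 on the Y577F time arrays and -0.08, -0.17 and -0.22 on those of FI-Delta cells. It fell in Y577F cells (-0.49 ± 0.10, adjusted p = 0.0042), a call lost without Y577F time array 2 at -0.39. The value in FI-Delta cells was -0.28 ± 0.10 (adjusted p = 0.14), and the difference between the lines was not called (-0.21 ± 0.11, adjusted p = 0.28). Slc7a2 (CAT2), the arginine carrier known from activated macrophages, read 0.12 and 0.61 on the 72 h arrays and was higher in Y577F cells then (0.31 ± 0.09, adjusted p = 0.041). That call was present without 0 h array 2 or Y577F time array 2 and lost without each other hybridisation, at 0.17 to 0.35. Slc7a3 was called nowhere.

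Of 6 sodium-coupled neutral carriers (Slc38), 1 was called. Slc38a2 (SNAT2), known to be induced when amino acids run short, read -0.08, -0.46 and -0.33 in FI-Delta cells and -0.18 and -0.31 in Y577F cells, with overlap. The estimates were -0.38 ± 0.10 (adjusted p = 0.042, called) and -0.20 ± 0.10 (adjusted p = 0.19). On the 72 h arrays it read 0.12 and 0.63 and was higher in Y577F cells (0.33 ± 0.10, adjusted p = 0.046). The fall in FI-Delta cells was called without 72 h array 1 or Y577F time array 2 and lost without each other hybridisation (-0.45 to -0.28). The 72 h call was present without Y577F time array 2 and lost in the other fits of this kind (0.16 to 0.43). Slc38a9, a lysosomal sensor of arginine, was called in no comparison, with changes of 0.16 ± 0.11 in FI-Delta and 0.21 ± 0.11 in Y577F cells.

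Slc36a1, a proton-coupled carrier that lets small amino acids out of the lysosome, read 0.51 and 0.48 in Y577F cells and 0.33, 0.18 and 0.52 in FI-Delta cells. It rose in Y577F cells (0.51 ± 0.08, adjusted p = 0.0011), a call kept under every alternative run. In FI-Delta cells it rose by 0.34 ± 0.09 (adjusted p = 0.029), but the call depended on FI-Delta time arrays 1 and 2, FI-Delta time array 3, Y577F time array 1, and array 1 of each time (0.28 to 0.40 where lost). The difference was 0.16 ± 0.09, with a 95% interval from -0.04 to 0.37. The Slc43 members Slc43a1 and Slc43a3 were not called, and the largest value of the pair was -0.24 ± 0.11 for Slc43a3 at 0 h (adjusted p = 0.39).

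The largest rises in Y577F cells among the members were those of 3 Slc6 genes. Slc6a4, the serotonin carrier, read 1.54 and 1.60 on the Y577F time arrays and 0.18, 0.45 and 0.46 on the FI-Delta time arrays, far apart. It rose 2.93-fold in Y577F cells (1.55 ± 0.09, adjusted p = 5.0e-07) and 1.31-fold in FI-Delta cells (0.39 ± 0.09, adjusted p = 0.019), and the difference was 1.16 ± 0.10 (adjusted p = 4.5e-05). The FI-Delta call was lost without FI-Delta time array 3, FI-Delta time arrays 1 and 2, Y577F time array 1, 72 h array 2 or 0 h array 1, at 0.37 to 0.44. At 0 h it read 0.06, -0.01 and 0.31 and was not called (0.09 ± 0.08, adjusted p = 0.69). At 72 h it read 1.23 and 1.24, or 2.39-fold higher in Y577F cells (1.26 ± 0.09, adjusted p = 2.4e-06). The rise in Y577F cells, the 72 h value and the difference were each called under all 17 alternatives.

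Slc6a12, a carrier of betaine and GABA, read 1.20 and 1.70 in Y577F cells and -0.01, 0.55 and 0.72 in FI-Delta cells. It rose 2.59-fold (1.37 ± 0.14, adjusted p = 3.2e-05) and 1.46-fold (0.55 ± 0.14, adjusted p = 0.034), and the changes differed by 0.82 ± 0.16 (adjusted p = 0.0069). Leaving out Y577F time array 1, FI-Delta time array 3, either 72 h array or 0 h array 1 ended the FI-Delta call (0.40 to 0.60). At 72 h it read 0.91 and 1.13 and was 2.15-fold higher in Y577F cells (1.10 ± 0.14, adjusted p = 0.00022), and at 0 h it read 0.62, 0.10 and 0.34 and was not called (0.28 ± 0.12, adjusted p = 0.38).

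Slc6a6, the taurine carrier, read 1.53 and 1.09 in Y577F cells and 0.85, 0.63 and 0.63 in FI-Delta cells, all above 0 and without overlap. Its rises were 2.43-fold (1.28 ± 0.11, adjusted p = 1.5e-05) and 1.64-fold (0.71 ± 0.12, adjusted p = 0.0031), both called under every alternative run. At 72 h it read 0.25 and 0.45 and was not called (0.38 ± 0.11, adjusted p = 0.050). It was called there without 0 h array 1 (0.40 ± 0.11, adjusted p = 0.046) or Y577F time array 2 (0.43 ± 0.11, adjusted p = 0.030). The difference of 0.57 ± 0.13 (adjusted p = 0.020) was lost without FI-Delta time array 3, FI-Delta time arrays 1 and 2, 72 h array 2 or 0 h array 1, at 0.49 to 0.58. Slc6a9, a glycine carrier, read -0.14 and -0.65 in Y577F cells and -0.58, -0.14 and -0.46 in FI-Delta cells. Only the value of Y577F cells was called (-0.40 ± 0.09, adjusted p = 0.007, against -0.29 ± 0.09 and 0.075), and it was lost without either Y577F time array at -0.41 and -0.38. Without 0 h array 3 the value in FI-Delta cells was called as well (-0.30 ± 0.08, adjusted p = 0.049). The difference between the lines was -0.11 ± 0.10 (adjusted p = 0.55). Slc6a2, the noradrenaline carrier, and Slc6a3, the dopamine carrier, were not called.

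**Figure D3:**
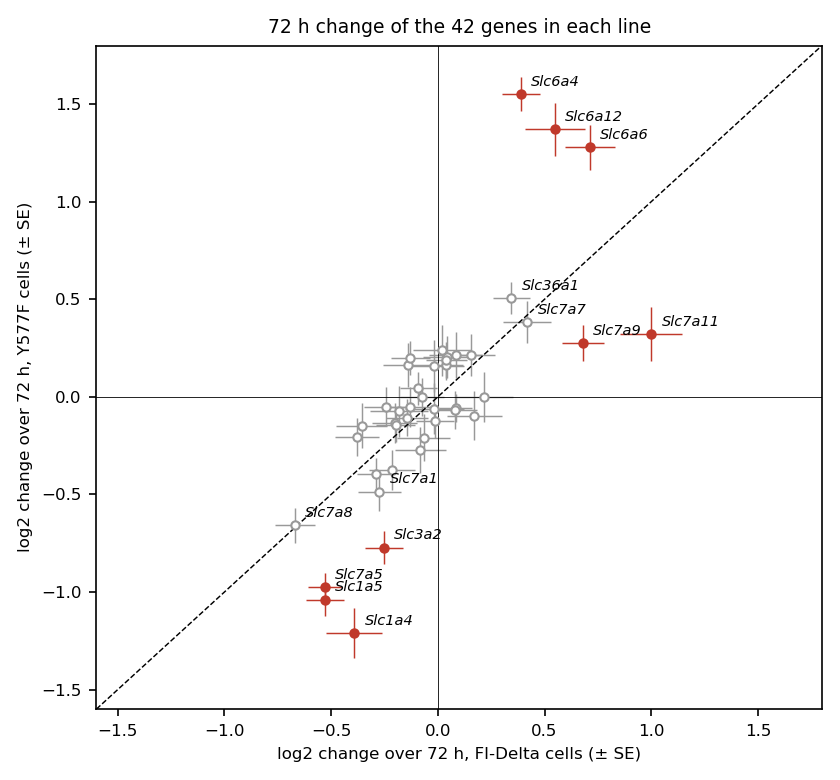
Change over 72 h in FI-Delta cells (x axis, log2) against that in Y577F cells (y axis, log2) for the 42 genes, with bars of 1 standard error and a dashed line where the changes are equal, both estimated from shared arrays. Red points mark the 9 genes whose change differed between the lines, with Slc6a4, Slc6a12 and Slc6a6 above the line and Slc1a4, Slc1a5, Slc3a2, Slc7a5, Slc7a11 and Slc7a9 below it.

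Slc7a6os, named for its place opposite a light chain gene, encodes a protein that is not a carrier and fell in Y577F cells (-0.37 ± 0.10, adjusted p = 0.027), with -0.58 and -0.16 on the arrays. The call was lost without Y577F time array 1 or FI-Delta time arrays 1 and 2, at -0.24 and -0.37.

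The other 25 members were called in no comparison with all hybridisations in the fit. Without 0 h array 3, Slc38a1 was called lower in FI-Delta cells (-0.38) and the difference of Slc6a21 was called (0.38). Their changes ran from -0.36 (Slc38a1) to 0.22 (Slc7a10) in FI-Delta cells and from -0.27 (Slc38a3) to 0.24 (Slc7a13) in Y577F cells. Between the lines they ran from -0.24 (Slc43a3) to 0.20 (Slc1a3) at 0 h and from -0.25 (Slc7a10) to 0.25 (Slc6a14) at 72 h, and the differences between changes from -0.27 (Slc7a3) to 0.30 (Slc6a21). Their 95% intervals reached a median of 0.21 to 0.27 to either side, so a change of that size could not be detected in most of them. These intervals are not adjusted over all features as the calls are. Larger values also went uncalled, such as -0.36 for Slc38a1 in FI-Delta cells. Between 1 and 2 of the 25 had an unadjusted p under 0.05 in each comparison.

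For 7 members several probes were averaged, and in 2 of them the probes disagreed. Of 3 probes annotated to the glial glutamate carrier Slc1a3, 1 fell in Y577F cells (-0.52 ± 0.11, adjusted p = 0.0051) and was higher at 0 h (0.58 ± 0.10, adjusted p = 0.010), while the other two gave 0.10 and 0.05 for the former and -0.02 and 0.05 for the latter. Of 3 probes annotated to Slc6a2, 1 rose in Y577F cells (0.52 ± 0.09, adjusted p = 0.0021), and the other two gave -0.03 and -0.00. These probes were picked for mention after their values were seen, and spotted oligonucleotides may detect related genes.

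Other genes of amino acid handling were read from fixed lists, whose counts are to be held against all features, of which 5.19% rose and 2.97% fell in FI-Delta cells and 9.28% rose and 8.75% fell in Y577F cells. Of 23 amino acid response genes, which include Atf4 and its known targets, 13 fell and 2 rose in Y577F cells, and 5 fell and 2 rose in FI-Delta cells. The change of 11 was more negative in Y577F than in FI-Delta cells and that of 2 more positive, against 4.91% and 4.33% of all features. The median change of the 23 was -0.40 in Y577F and -0.08 in FI-Delta cells. Without 72 h array 2 the 11 became 7, and without Y577F time array 2 the 2 genes that rose in Y577F cells became 1. The 2 more positive differences became 1 without 0 h array 1, either 72 h array or FI-Delta time array 3. By size the changes were led by Psat1 (-2.43 ± 0.12), an enzyme of serine synthesis, which also fell in FI-Delta cells (-0.88 ± 0.13). Atf4, chosen after its values were seen, read -1.16 ± 0.09 in Y577F cells and -0.02 ± 0.09 in FI-Delta cells, the first called (adjusted p = 3.6e-06) and the second not (adjusted p = 0.94). At 0 h 6 of the 23 genes were higher in Y577F cells and none lower, against 0.934% and 0.484% of all features. Atf4 was among the 6 (0.56 ± 0.08, adjusted p = 0.0040), which became 1 without 0 h array 1 or 3. At 72 h 6 were lower and 3 higher in Y577F cells, against 6.45% and 6.44% of all features. Atf4 was among those called lower then (-0.58).

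Among 24 genes of amino acid sensing at the lysosome and mTORC1, 3 rose and 3 fell in Y577F cells, counts near the 9.28% and 8.75% of all features. Lamtor1, an anchor of the Ragulator complex, rose by 1.00 ± 0.11, and Rragc, a Rag GTPase, by 0.67 ± 0.10. Lars, the leucyl-tRNA synthetase, fell by 1.19 ± 0.09, and Eif4ebp1, a substrate of mTORC1 that holds back translation, by 0.69 ± 0.09. In FI-Delta cells Rragc rose by 0.65 ± 0.10 and Lamtor2 by 0.36 ± 0.09, and no fall was called among the 24 (2 had an unadjusted p under 0.05 in that direction), and without Y577F time array 1 the fall of 1 was called. The call of Lamtor2 was lost without 0 h array 1, either 72 h array, FI-Delta time arrays 1 and 2, FI-Delta time array 3 or Y577F time array 1, at 0.33 to 0.43.

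In arginine and polyamine metabolism, 4 of 15 genes rose and 3 fell in Y577F cells, and 2 rose and 3 fell in FI-Delta cells. Arg2, the mitochondrial arginase, rose in both lines (1.49 ± 0.11 and 1.02 ± 0.12), as did Sat1, which starts polyamine breakdown (1.10 ± 0.08 and 1.00 ± 0.09). Ass1, which remakes arginine from citrulline, rose in Y577F cells by 1.26 ± 0.10 and was 1.81 ± 0.10 higher in them at 72 h. The spermidine synthase gene Srm fell by 0.92 ± 0.10 in Y577F cells and by 0.50 ± 0.10 in FI-Delta cells. The count of 3 that fell in FI-Delta cells became 1 without FI-Delta time array 3 or without FI-Delta time arrays 1 and 2.

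Of 14 genes for glutathione and cystine use, 2 rose in FI-Delta cells, Mgst1 (0.86 ± 0.10) and the glutathione reductase Gsr (0.61 ± 0.12), the second not called without FI-Delta time arrays 1 and 2 (0.41). In Y577F cells 3 rose and 2 fell. Nfe2l2, the regulator of the antioxidant response, rose by 0.93 ± 0.12, and the subunits of the enzyme that makes the glutathione precursor fell, Gclc by 0.52 ± 0.14 and Gclm by 0.51 ± 0.08. The call of Gclc was lost without Y577F time array 2, at -0.50. Gsr was lower in Y577F cells at both times (-1.03 ± 0.11 at 0 h and -1.39 ± 0.12 at 72 h). At 72 h 2 of the 14 were lower in Y577F cells, Gsr and Mgst1 (-0.81), where 6.45% of all features were. The 3 that were higher then, against 6.44% of all features, were Nfe2l2 (0.70), Hmox1 (0.53) and Nqo1 (0.42), and they became 1 without 72 h array 2.

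Of 19 other carriers of amino acids and small peptides, 2 rose in each line and 1 fell in Y577F cells. Slc15a3, a lysosomal peptide carrier, rose by 1.00 ± 0.16 in FI-Delta and 1.15 ± 0.15 in Y577F cells. Ctns, the lysosomal cystine exporter, rose by 0.33 ± 0.09 and 0.46 ± 0.08, the first lost without any 1 hybridisation other than 0 h array 3 or Y577F time array 2, at 0.28 to 0.35. The mitochondrial carrier Slc25a12 was lower in Y577F cells at 72 h (-0.72 ± 0.09), and its change was more negative in them (-0.60 ± 0.10), both called whichever hybridisation was left out. It fell in Y577F cells (-0.32 ± 0.09), a call lost without either 72 h array, either Y577F time array, FI-Delta time arrays 1 and 2 or FI-Delta time array 3 (-0.38 to -0.28).

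In branched-chain amino acid breakdown 3 of 16 genes rose in Y577F cells, led by the phosphatase Ppm1k (0.54 ± 0.09), and 2 fell, which became 1 without Y577F time array 1 and 0 without Y577F time array 2. None was called in FI-Delta cells (5 had an unadjusted p under 0.05), where 1 gene each way was called without 0 h array 3 and 1 lower without either Y577F time array. Of 9 genes of glutamine and glutamate metabolism, Glud1 rose in Y577F cells (0.47 ± 0.08) and Ppat fell (-0.57 ± 0.09). Glud1 also rose in FI-Delta cells (0.40 ± 0.08), a call lost without FI-Delta time array 3 or FI-Delta time arrays 1 and 2 at 0.44 and 0.42. The glutamine synthetase gene Glul fell there (-0.37 ± 0.09), a call also present without Y577F time array 2 or 0 h array 2 or 3, and lost in the other fits at -0.42 to -0.33.

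Markers of blood cell types moved in the same comparisons, and their part in the carriers' changes was not tested. Of 7 macrophage markers 6 rose in each line, with a median of 0.86 in FI-Delta and 2.09 in Y577F cells, and 6 were higher in Y577F cells at 72 h. Of 8 neutrophil granule genes 7 rose in FI-Delta cells (median 1.50), 1 rose and 3 fell in Y577F cells (median -0.23), and all 8 were lower in Y577F cells at 72 h (median -3.01). At 0 h 7 of the 8 were lower in Y577F cells, and 3 macrophage markers were higher, a count that became 0 without 0 h array 1. To set the marker counts in scale, higher calls between the lines made up 6.44% of the 20243 features at 72 h and 0.934% at 0 h. For lower calls the shares were 6.45% and 0.484%. Over time the shares were 5.19% up and 2.97% down in FI-Delta cells, and 9.28% up and 8.75% down in Y577F cells. Of 6 mast cell and basophil genes 4 fell in FI-Delta cells and 3 in Y577F cells, where Kit rose (not called once Y577F time array 1 was left out). Of 5 erythroid and megakaryocyte genes 2 fell in each line and 1 rose in Y577F cells, a count of 0 without either Y577F time array. Of these 5, 1 was higher in Y577F cells at 0 h, and 2 were higher and 1 lower at 72 h. The 2 became 1 without 72 h array 2, and the 1 lower at 72 h became 0 without either 72 h array. None of 5 lymphoid markers was called in any comparison, and none had an unadjusted p under 0.05. The ratios carry no absolute level, so the presence of a marker in a line could not be read from them.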

How the data were processed

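RNA of FI-Delta and Y577F cells was compared on 10 2-colour arrays, whose log2 ratios were deposited by the authors. Limma is listed in the submitters' processing notes. For the background correction, the normalisation within arrays, the direction of the ratio and the log base, the sources used here give nothing. From the deposited values, 1243 control spots of 23040 were left out, probes of 1 gene were averaged (20243 features), and the dye-swapped pair of FI-Delta arrays was averaged. The 4 groups of RNA were described by 3 coefficients plus a term for the dye, and fitted by limma (version 3.58.1, R 4.3.3) with 5 residual degrees of freedom, and p-values were Benjamini-Hochberg adjusted over all features. The median standard error was 0.0871 to 0.112. The number of arrays limits the precision. The procedure was tested on simulated data. Every member called in at least 1 comparison is named, with the largest value of a role group that had no call, 7 carriers given whatever their values, and up to 4 called genes per pathway list and comparison. Members and lists were chosen with earlier results of these data known. The alternatives tried were the dye swap as separate arrays, no dye term, a replicate block, the arrays of a comparison alone, array weights, centring and scaling, each probe on its own, only features with 1 gene symbol, and leaving out each hybridisation in turn. Promoter letters and motif counts come from RefSeq.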

Additional observations from a re-analysis of the deposited data

Results flagged for a closer look

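The change over 72 h differed between the lines, by a test of the difference itself (limma, adjusted over all features), for 9 carrier genes. In Y577F cells it was more positive for Slc6a4 (1.16), Slc6a12 (0.82) and Slc6a6 (0.57). It was more negative for Slc1a4 (-0.82), Slc7a11 (-0.68), Slc3a2 (-0.52), Slc1a5 (-0.51), Slc7a5 (-0.45) and Slc7a9 (-0.40). For Slc6a4, Slc6a12 and Slc6a6 the change was positive in both lines, and for Slc1a5 and Slc7a5 it was called lower in both. With a term for each RNA sample, only the differences of Slc1a4 and Slc6a4 were still called. With only the arrays of the comparison itself, only that of Slc6a4 was.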

How the results depend on the processing

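Of 42 calls of single carriers under 17 alternatives, 565 of 714 results were kept, 149 were lost and 0 turned their sign, and 15 calls were kept in every alternative. These alternatives are not independent. The fit of features with 1 gene symbol reuses the carriers' values and changes only the features fitted beside them. The same holds for each probe on its own where a carrier has 1 probe. With several probes the one with the smallest p was taken. With a term for each RNA sample (a replicate block, which leaves 2 residual degrees of freedom and no dye term), 4 members were called in FI-Delta and 8 in Y577F cells over time, 0 at 0 h (8 at an unadjusted p under 0.05), 2 at 72 h and 2 for the difference between the lines. With only the arrays of a comparison itself the counts were 6 in FI-Delta cells, 0 at 0 h (7 at an unadjusted p under 0.05), 3 at 72 h and 1 for the difference. At 72 h the count of 5 became 3 with no dye term or with arrays centred and scaled, and 14 with array weights, 8 higher and 6 lower. Leaving out 1 hybridisation gave 6 to 12 calls in FI-Delta cells, 10 to 15 in Y577F cells, 1 to 3 at 0 h, 3 to 6 at 72 h and 5 to 10 for the difference. The block fit uses the same 9 hybridisations with fewer residual degrees of freedom. The left-out fits, and those with only the arrays of a comparison, use fewer hybridisations. The cause of a change of call was not tested. The ratios give no signal over background, so dim probes could not be told apart.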
